A study of Homo sapiens with 6 samples.

Results

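Mucins are large glycoproteins whose serine- and threonine-rich repeats carry dense O-linked sugar chains, and the 10 mucin genes examined here cover both classes of the family. Membrane mucins (MUC1, MUC3A, MUC4, MUC12, MUC13, MUC17 and MUC20) stay anchored at the apical cell surface and build the glycocalyx, and secreted mucins (MUC2, MUC5AC and MUC5B) are released and polymerise into mucus gel. In the intestine MUC2 is the main gel-forming mucin of goblet cells, while MUC3A, MUC12, MUC13 and MUC17 sit on the brush border of absorptive enterocytes. The 10 genes were given by symbol and were matched to 10 entries of GENCODE release 29 among 58780 genes. The list was drawn up with results of the auxin contrast already known, so the genes were in effect selected on their expression in auxin against DMSO libraries, MUC12 foremost. The levels of these genes and their fold changes are therefore described without a test of their own.

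RNA came from HCT116, an immortalized human colorectal carcinoma line, in 6 libraries. One group of 3 had been given auxin for 16 h and the other group of 3 received DMSO, the solvent, as control. Auxin is used to degrade a protein that carries a degron tag, but the labels name neither a tagged protein nor any allele, so what both groups carry in common beyond the HCT116 background is not stated. The labels number the libraries of each group as biological replicates 1 to 3. Total RNA was depleted of ribosomal RNA before stranded paired-end sequencing.

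Library totals ran from 234037969 to 625895062 expected counts (estimated reads per gene, not normalized), and replicate 1 was the deepest in both groups. Of the epithelial markers EPCAM, CDH1, KRT8, KRT18, KRT19 and CLDN7, 6 of 6 reached at least 1 TPM (abundance per transcript length, scaled to the same total in each library) in every library, with summed levels of 1799 to 2464 TPM in DMSO and 2212 to 2653 TPM after auxin. CLDN7 alone went from 74.7 to 90.6 TPM in DMSO to 5.44 to 7.06 TPM after auxin. The leukocyte, fibroblast and endothelial lists summed to at most 0.88, 2.77 and 0.08 TPM. Markers of differentiated intestinal cells were also near 0. The goblet cell list (MUC2, CLCA1, FCGBP, SPDEF) summed to 0.23 to 0.44 TPM in DMSO and 0.27 to 0.55 TPM after auxin, almost all of it FCGBP, and the enterocyte list (SI, ALPI, FABP2, ANPEP) to at most 0.04 TPM in any library. In bulk RNA, fewer cells expressing a gene and less RNA per cell cannot be told apart.

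Mucin RNA in these cells came mostly from membrane mucins, and in TPM a different gene led after auxin. The TPM of MUC3A came chiefly from MUC3A-204, a short transcript of its 3′ end described below. It cannot be read as the level of full-length mucin RNA. Per length, MUC3A was the most abundant of the 10 genes in DMSO, at 15.7 ± 3.2 TPM (SD, n = 3), followed by MUC13 at 2.23 ± 0.44, MUC1 at 1.37 ± 0.74, MUC12 at 1.23 ± 0.38 and MUC20 at 0.397 ± 0.151 TPM (SD, n = 3 per group). In the DMSO libraries the range of MUC1 overlapped those of both MUC13 and MUC12. Within each DMSO library MUC13 was above MUC1, at 2.72, 1.86 and 2.11 against 2.22, 0.94 and 0.95 TPM. MUC12, at 1.64, 1.17 and 0.89 TPM, was above MUC1 in DMSO replicate 2 only, so the order of MUC1 and MUC12 is not resolved. After auxin MUC13 led at 9.25 ± 1.13 TPM and MUC12 was next at 7.60 ± 0.63 TPM, with overlapping ranges, ahead of MUC3A at 1.65 ± 0.52, MUC1 at 0.410 ± 0.166 and MUC20 at 0.38 ± 0.12 TPM (SD, n = 3 per group). MUC13 was above MUC12 within each auxin library. MUC1 and MUC20 overlapped after auxin, and their order differed between libraries. MUC4 was at 0.04 to 0.05 TPM in every library, and MUC2, MUC5AC, MUC5B and MUC17 were at 0.01 TPM or below. The summed TPM of the 10 genes overlapped between the groups, at 20.9 ± 4.9 in DMSO and 19.3 ± 2.5 after auxin (SD, n = 3 per group). In DMSO that sum rests chiefly on MUC3A-204, so it does not show that mucin reads were unchanged. In depth-scaled counts (CPM, with TMM library factors) MUC12 and MUC3A together had 36.5 ± 4.3 in DMSO and 137.1 ± 7.0 after auxin (SD, n = 3 per group). The groups did not overlap on that scale.

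MUC3A made up 72.9% to 77.0% of the summed mucin TPM in the DMSO libraries and 7.15% to 10.2% in the auxin libraries. The share of MUC12 was 5.11% to 6.20% in DMSO and 37.8% to 41.8% after auxin, and that of MUC13 was 9.85% to 12.1% and 46.9% to 48.8%. Counted in reads and not per length, MUC12 already held 39.2% to 45.3% of mucin counts in DMSO, and it held 80.2% to 82.1% after auxin. Its main transcript has 16321 bases against 1093 for that of MUC3A. MUC3A held 34.7% to 39.7% of mucin counts in DMSO and 1.03% to 1.47% after auxin. MUC13 held 11.8% to 15.4% of mucin counts in DMSO and 16.0% to 17.2% after auxin, a far smaller shift than in TPM. In counts MUC3A was below MUC12 in DMSO replicates 1 and 2 and about level with it in replicate 3. On either scale no DMSO library reached the MUC12 share of any auxin library.

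**Figure D1:**
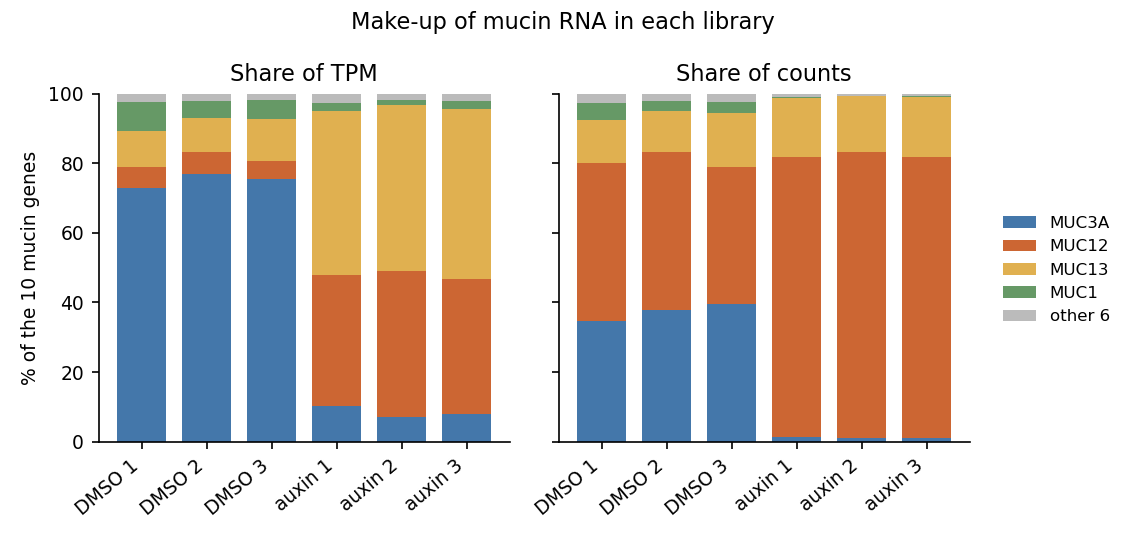
Share of each mucin gene in the summed TPM (left) and summed expected counts (right) of the 10 mucin genes, 1 stacked bar per library (replicate numbers as in the labels), with the y axis in percent. MUC3A, chiefly as its short transcript MUC3A-204, fills 72.9% to 77.0% of TPM in DMSO. It fills at most 10.2% after auxin, when MUC12 and MUC13 take most of the bar. In counts MUC13 fills at most 17.2% after auxin.

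Of the 10 genes, 8 passed the filter on low counts and entered the fit across 19725 genes. MUC5AC and MUC5B did not. With edgeR's quasi-likelihood fit and a Benjamini-Hochberg threshold of 0.05, 3 of the 8 (MUC12, MUC13, MUC4) were called higher and 2 (MUC3A, MUC1) lower. Of all genes tested 25.4% were called higher and 26.9% lower, 52.3% in either direction. The split was 5010 genes higher and 5311 lower, and 6534 and 4416 with upper-quartile factors. Limma-trend on log2(TPM + 1), which changes the unit and the test together, called 970 higher and 2966 lower. The median log2 fold change of the 8 mucin genes was 0.49, against 0.02 over all genes tested. Depth-scaled counts (CPM, with TMM library factors) of the auxin and DMSO libraries did not overlap in 6 of the 8, against 60.3% of all genes tested. Since these genes were chosen with this contrast known, nothing is read from either count.

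**Figure D2:**
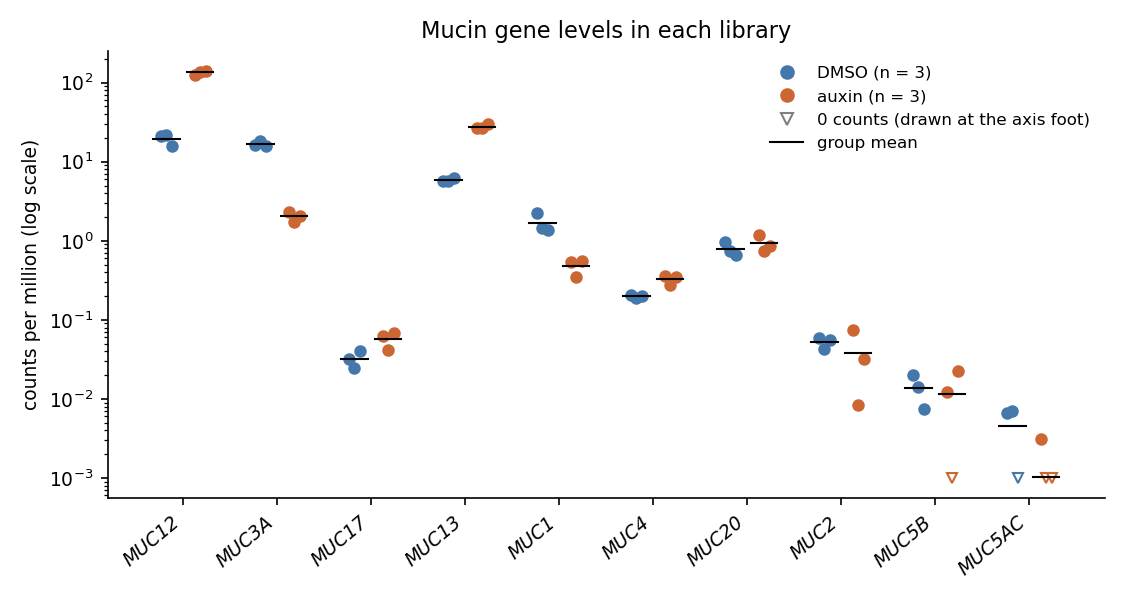
Level of each mucin gene in CPM (log axis) in the 3 DMSO and 3 auxin libraries, with the group mean as a bar; open triangles at the axis foot are libraries with 0 counts. MUC12 and MUC13 lie higher after auxin, MUC3A and MUC1 lie lower, and MUC2, MUC5AC, MUC5B and MUC17 stay below 0.1 CPM.

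MUC3A, MUC12 and MUC17 form a tandem cluster of membrane mucin genes on 7q22, all read from the plus strand. On GRCh38 MUC3A (ENSG00000169894.17) spans chromosome 7 from 100949555 to 100968346, MUC12 (ENSG00000205277.9) from 100969623 to 101018949 and MUC17 (ENSG00000169876.13) from 101020072 to 101058745. From the end of MUC3A to the start of MUC12 is 1277 bases, and from the end of MUC12 to the start of MUC17 is 1123 bases. The start regions of the 3 genes are shown because neighbours this close differed in direction. They are RefSeq windows on GRCh38.p14, plus strand, from 250 bases before to 50 bases after the annotated start, at chr7:100949284-100949583 for MUC3A, chr7:100969315-100969614 for MUC12 and chr7:101019831-101020130 for MUC17. Capitals mark matches to the motifs searched.
MUC3A: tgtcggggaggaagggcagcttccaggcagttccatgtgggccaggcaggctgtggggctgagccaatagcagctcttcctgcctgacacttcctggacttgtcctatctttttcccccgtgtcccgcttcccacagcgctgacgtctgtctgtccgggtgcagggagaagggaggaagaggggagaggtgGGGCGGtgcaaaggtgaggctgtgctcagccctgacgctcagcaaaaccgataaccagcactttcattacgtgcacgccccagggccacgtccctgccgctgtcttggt
MUC12: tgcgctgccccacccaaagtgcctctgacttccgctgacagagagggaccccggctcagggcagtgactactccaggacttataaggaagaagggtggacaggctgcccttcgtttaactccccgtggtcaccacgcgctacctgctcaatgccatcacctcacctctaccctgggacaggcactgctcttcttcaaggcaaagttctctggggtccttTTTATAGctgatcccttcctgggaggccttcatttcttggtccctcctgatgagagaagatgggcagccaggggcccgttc
MUC17: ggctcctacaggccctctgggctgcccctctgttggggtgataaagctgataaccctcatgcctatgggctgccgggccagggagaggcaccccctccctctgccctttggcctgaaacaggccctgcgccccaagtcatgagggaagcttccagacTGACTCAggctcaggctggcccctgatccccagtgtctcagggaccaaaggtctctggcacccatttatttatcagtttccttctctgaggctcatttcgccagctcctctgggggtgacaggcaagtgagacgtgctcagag

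The motifs searched on both strands were the TATA box TATAAA, the SP1 GC box GGGCGG, the CDX motif TTTATNG, the motif GTTAAT, the AP-1 motif TGANTCA and the E-box CACGTG. In the MUC12 window a TATA box on the minus strand and a CDX motif on the plus strand overlap and both begin at position -31 from the RefSeq start, so they are largely the same letters. MUC3A held a single GC box at -59 and MUC17 a single AP-1 motif at -93. Over 35116 RefSeq windows of this length, 11.5% held the TATA box, 9.73% the CDX motif, 45.0% the GC box, 7.71% the AP-1 motif, 6.88% GTTAAT and 7.26% the E-box. A match describes the letters only. The RefSeq starts lie 21, 58 and 9 bases from the GENCODE starts of MUC3A, MUC12 and MUC17.

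MUC12, a long membrane mucin of the colonic surface, had 21.0, 22 and 15.9 CPM in DMSO replicates 1, 2 and 3 and 126.8, 138.3 and 140.2 CPM in the auxin replicates. Every auxin library lay far above every DMSO library. The group means were 19.6 ± 3.3 and 135.1 ± 7.2 CPM (SD, n = 3 per group). That is 6.88-fold, or 2.78 on the log2 scale with an SE of 0.13. Only 75 of the genes tested, or 0.38%, were called higher with a log2 fold change at least this large.

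MUC3A, the mucin gene directly upstream, went the other way. It had 16.1, 18.3 and 16.0 CPM in DMSO replicates 1, 2 and 3 and 2.33, 1.74 and 2.06 CPM in the auxin replicates. The groups did not overlap. The log2 fold change was -3.04 (SE 0.13), 8.22-fold lower after auxin, and 234 genes, or 1.19% of those tested, were called lower by at least as much. In TPM, MUC3A stood 11.8 to 14.7 times above MUC12 in the DMSO libraries, and MUC12 stood 3.72 to 5.84 times above MUC3A in the auxin libraries. Both ratios rest on the short transcript MUC3A-204 and do not compare full-length RNA of the genes.

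MUC17, the last gene of the cluster, was close to silent in all 6 libraries. It had 19, 7 and 11 counts in DMSO replicates 1, 2 and 3 and 40, 10 and 15 counts after auxin, which is 0.0316, 0.0248 and 0.0405 CPM against 0.0619, 0.0418 and 0.0677 CPM. The auxin libraries lay just above the DMSO libraries, but the log2 fold change of 0.83 had an SE of 0.34 and was not called. With upper-quartile factors it was 0.96 and MUC17 was called higher. The deposited TPM rounds to 0 for MUC17 in every library.

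The transcript tables place most MUC3A reads at the 3′ end of the gene. GENCODE lists 4 transcripts of MUC3A, and the one annotated as retained intron, MUC3A-204 (chromosome 7, 100966238 to 100967746), took 96.3% ± 0.6 of the gene's TPM in DMSO libraries and 96.0% ± 0.7 after auxin (SD, n = 3 per group). In reads its share was 80.3% ± 2.2 and 76.4% ± 3.5 (SD, n = 3 per group). It has 4 exons and 1093 bases, begins 16683 bases downstream of the start of the full-length MUC3A-201, and ends 1877 bases before the start of MUC12. Its first exon takes in the last 148 bases of intron 8 of MUC3A-201 and runs on into exon 9. The retained stretch, at chr7:100966238-100966385 of GRCh38 on the plus strand, is what sets this transcript apart and is 73.6% G or C.
MUC3A-204 retained stretch: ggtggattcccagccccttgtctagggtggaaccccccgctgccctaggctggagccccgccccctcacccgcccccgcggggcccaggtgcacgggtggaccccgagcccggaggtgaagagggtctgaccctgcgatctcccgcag

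MUC3A-204 was at 18.8, 14.0 and 12.6 TPM in DMSO replicates 1, 2 and 3 and at 2.15, 1.16 and 1.46 TPM in the auxin replicates. MUC3A-201, the full-length protein-coding transcript of 11226 bases, was at 0.16, 0.12 and 0.11 TPM in DMSO and at 0.02 TPM in each auxin library. MUC3A-202, annotated as a target of nonsense-mediated decay (destruction of RNA with an early stop codon), was at 0.430 ± 0.020 TPM in DMSO against 0.0433 ± 0.0115 TPM after auxin (SD, n = 3 per group). All 3 were thus lower in every auxin library than in any DMSO library. With MUC3A-204 left out, the rest of the gene had 2.77, 3.75 and 3.43 CPM in DMSO and 0.457, 0.451 and 0.520 CPM after auxin, and its log2 fold change was -2.80 (SE 0.16).

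The assignment of reads to MUC3A-204 had a deposited posterior SD of at most 1.02% of its count. That SD covers only how reads were split among the annotated transcripts, and read coverage along the gene was not examined. By this assignment MUC3A reads came chiefly from its last exons. The TPM of MUC3A, which divides by a short length, cannot be read as the level of full-length mucin RNA.

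MUC12 reads, in contrast, were assigned to a transcript of the whole gene. MUC12-206, protein-coding with 12 exons and 16321 bases, took 97.1% ± 1.0 of MUC12 TPM in DMSO libraries and 94.8% ± 0.8 after auxin (SD, n = 3 per group). It was at 1.59, 1.14 and 0.86 TPM in DMSO replicates 1, 2 and 3 and at 7.90, 6.63 and 7.08 TPM in the auxin replicates. MUC12-202, a longer protein-coding transcript, was at 0.0267 ± 0.0208 and 0.197 ± 0.046 TPM, but the posterior SD of its count reached 97.0% of the count, so its share is poorly determined. The short decay-annotated MUC12-201 was at 0.01 ± 0.01 TPM in DMSO against 0.193 ± 0.015 TPM after auxin (SD, n = 3 per group), on at most 42.8 counts. Entries on the opposite strand of these genes were near 0, with AC254629.1 inside MUC3A at 0.0192 ± 0.0021 and 0.0188 ± 0.0033 CPM and AC105446.1 inside MUC12 at 0.00229 ± 0.00199 and 0.00279 ± 0.00483 CPM (SD, n = 3 per group).

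**Figure D3:**
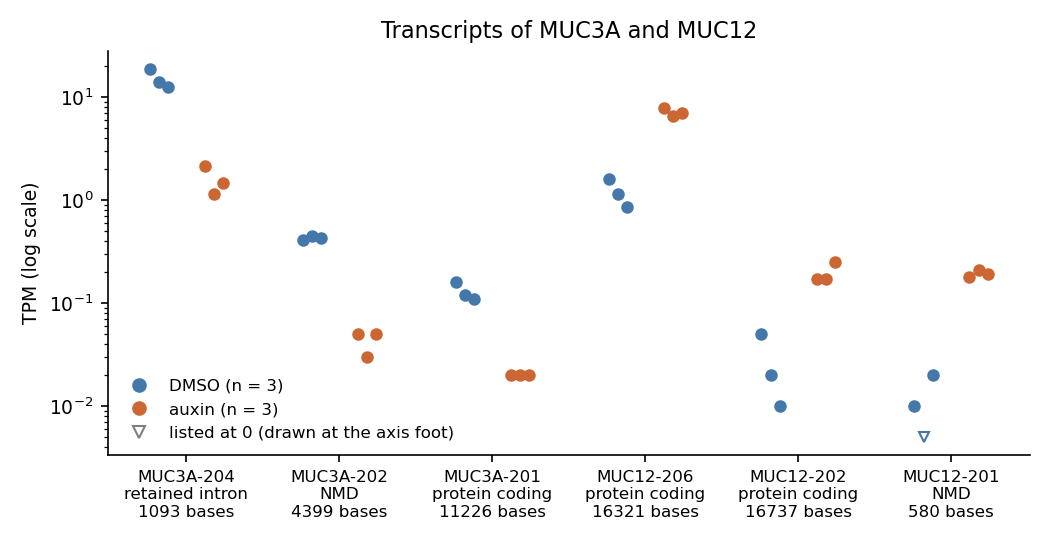
TPM (log axis) of the transcripts of MUC3A and MUC12 in the 3 DMSO and 3 auxin libraries, with each transcript's annotated type and summed exon length; NMD is nonsense-mediated decay and the open triangle is a library listed at 0. All 3 MUC3A transcripts lie lower after auxin and all 3 MUC12 transcripts lie higher, with MUC3A-204 and MUC12-206 far above the others.

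Outside the cluster, MUC13 and MUC1 were the other membrane mucins at 1 TPM or more in at least one group, and they moved apart as well. Their start regions, with the same motifs in capitals, are shown for comparison with the 7q22 genes. Both lie on the minus strand and are printed in the direction of transcription, at chr3:124934702-124935001 for MUC13 and chr1:155192866-155193165 for MUC1, 1 of its 2 RefSeq windows. MUC13 is A- and T-rich, with 41.0% G or C, and held GTTAAT on the opposite strand at -245 and an AP-1 motif at -178. MUC1 has 65.7% G or C and held a TATA box at -24 and 4 GC boxes, 3 of which overlap in one run.
MUC13: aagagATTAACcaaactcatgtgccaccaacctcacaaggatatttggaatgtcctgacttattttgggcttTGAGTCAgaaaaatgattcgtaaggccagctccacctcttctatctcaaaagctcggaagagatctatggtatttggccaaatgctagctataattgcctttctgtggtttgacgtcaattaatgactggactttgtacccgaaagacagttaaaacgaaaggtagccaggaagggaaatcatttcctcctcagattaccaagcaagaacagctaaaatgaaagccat
MUC1: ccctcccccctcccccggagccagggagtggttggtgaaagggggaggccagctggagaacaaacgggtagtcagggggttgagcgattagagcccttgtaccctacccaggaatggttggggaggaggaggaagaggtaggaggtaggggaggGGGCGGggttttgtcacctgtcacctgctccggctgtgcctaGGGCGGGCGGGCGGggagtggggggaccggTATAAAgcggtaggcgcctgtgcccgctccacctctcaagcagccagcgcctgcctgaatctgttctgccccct

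MUC13 (ENSG00000173702.7, chromosome 3, 124905442 to 124953819), a short transmembrane mucin of the gut epithelium, had 5.78, 5.71 and 6.23 CPM in DMSO replicates 1, 2 and 3 and 26.7, 27.0 and 29.9 CPM in the auxin replicates. The replicates of each group were close together and the groups lay far apart, with a log2 fold change of 2.24 (SE 0.08) or 4.72-fold. A rise at least this large was called in 175 genes, or 0.887% of those tested. MUC13-205, a protein-coding transcript of 12 exons whose start is the RefSeq start above, took 97.9% ± 1.2 of MUC13 TPM in DMSO libraries and 99.8% ± 0.2 after auxin (SD, n = 3 per group).

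MUC1 (ENSG00000185499.16, chromosome 1, 155185824 to 155192916), the membrane mucin found on most glandular epithelia, had 2.22, 1.45 and 1.36 CPM in DMSO and 0.540, 0.351 and 0.555 CPM after auxin. Each auxin library lay below each DMSO library. The log2 fold change was -1.80 (SE 0.26), 3.47-fold lower. Among its 29 annotated transcripts the protein-coding MUC1-228 held 56.0% ± 9.6 of TPM in DMSO libraries and 50.9% ± 11 after auxin, and the retained-intron MUC1-229 held 18.1% ± 8.4 and 25.1% ± 21.8 (SD, n = 3 per group). The ranges of both shares overlapped between the groups, and auxin replicate 2 had 0 counts of MUC1-229. The log2 fold change shrank to -0.71 in limma-trend on log2(TPM + 1), where MUC1 was no longer called.

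MUC4 (ENSG00000145113.21, chromosome 3, 195746765 to 195812277), a large membrane mucin that binds the receptor ERBB2, was low throughout. It had 124, 53 and 54 counts in DMSO and 235, 65 and 77 counts after auxin, or 0.206, 0.188 and 0.199 CPM against 0.364, 0.272 and 0.348 CPM. The auxin libraries were all higher, by a log2 fold change of 0.73 (SE 0.19). The MUC4 call was lost without DMSO replicate 2 and without auxin replicate 3, with log2 fold changes of 0.67 and 0.69. It was also lost in limma-trend, at 0.00 on log2(TPM + 1) and 0.03 with a pseudocount of 0.1. In TPM, deposited to 2 decimals, MUC4 read 0.04, 0.04 and 0.04 against 0.05, 0.04 and 0.04.

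MUC20 (ENSG00000176945.16, chromosome 3, 195720882 to 195741123), a small membrane mucin next to MUC4, did not separate the groups. It had 0.968, 0.734 and 0.656 CPM in DMSO and 1.19, 0.749 and 0.867 CPM after auxin, with overlapping ranges and a log2 fold change of 0.25 (SE 0.23). MUC20 has a pseudogene, MUC20P1, and an adjoining RNA gene, MUC20-OT1, that overlaps it on the same strand, and the posterior SD of the MUC20 count was between 3.94 and 11.03 counts per library. MUC20P1 was at 0.182 ± 0.062 and 0.259 ± 0.070 CPM, and MUC20-OT1 at 12.2 ± 2.8 and 7.88 ± 2.08 CPM (SD, n = 3 per group). Their edgeR adjusted p was 0.218 and 0.0501, and 0.0352 and 2.2e-05 with replicate number as a block.

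The secreted mucins were barely detected. MUC2 (ENSG00000198788.8, chromosome 11, 1074875 to 1110511) had 35, 12 and 15 counts in DMSO replicates 1, 2 and 3 and 48, 2 and 7 counts after auxin. Its groups overlapped, with a log2 fold change of -0.29 (SE 0.60) that became -1.39 without auxin replicate 1. MUC5B, the main mucin of salivary and airway glands, had 12, 4 and 2 counts in DMSO and 8, 0 and 5 after auxin. MUC5AC, the main mucin of the gastric surface, had 4, 2 and 0 counts in DMSO and 2, 0 and 0 after auxin. A count of 0 allows up to 3 counts, which is 0.0110 CPM in DMSO replicate 3, 0.0126 CPM in auxin replicate 2 and 0.0135 CPM in auxin replicate 3, for counting error only. MUC5AC and MUC5B were not tested, and at counts this low no difference between the groups was resolved.

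Between the groups MUC13 moved with MUC12 and MUC3A moved opposite to it. Over the 6 libraries, Pearson correlations of log2(CPM + 0.01) with MUC12 were 0.99 for MUC13, -0.989 for MUC3A and -0.93 for MUC1. These values mostly restate the difference between the groups. Within the DMSO libraries MUC13 had the reverse order of MUC12, and MUC3A had the same order as MUC12. Within the auxin libraries MUC13 had the order of MUC12, and MUC3A had neither that order nor its reverse. Among 12847 genes with a mean of at least 1 CPM, 300 had a correlation of at least 0.99 with MUC12. Among the 5 highest were AP002478.1 (0.9997), AC002066.1 (0.9996), HOXB9 (0.9993) and CEP68 (0.9990), of which HOXB9 encodes a homeobox transcription factor of posterior body regions.

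Other genes of the 7q22 neighbourhood were examined to place the opposite course of MUC3A and MUC12 among their neighbours. Of 19 other protein-coding genes within 250 kb of the cluster, 16 were tested, and edgeR's quasi-likelihood test called 3 that rose and 10 that fell, or 18.8% and 62.5%, against 25.4% and 26.9% of all genes tested. MUC3A and MUC12 lay outside the range of log2 fold changes of these neighbours on either side. Upstream, the nearest protein-coding genes were ACHE, UFSP1 and SRRT. ACHE, encoding acetylcholinesterase, fell from 0.648 ± 0.087 to 0.358 ± 0.049 CPM (SD, n = 3 per group). Its log2 fold change was -0.85, with SE 0.18 and edgeR adjusted p 0.00630. In limma-trend the ACHE change was -0.18 on log2(TPM + 1) and -0.71 with a pseudocount of 0.1, with adjusted p of 0.0692 and 0.0577. UFSP1, a UFM1-specific protease, was at 0.439 ± 0.088 and 0.622 ± 0.110 CPM (SD, n = 3 per group; edgeR adjusted p 0.0889, and 0.0132 with replicate number as a block or 0.0328 without DMSO replicate 1). SRRT, encoding the cap-binding partner ARS2, rose from 96.3 ± 4.0 to 158.4 ± 11.8 CPM (SD, n = 3 per group). This log2 fold change of 0.72 had SE 0.07 and edgeR adjusted p 0.000172.

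Downstream, TRIM56 and AP1S1 were among the nearest. AP1S1, a subunit of a clathrin adaptor, fell from 28.0 ± 2.0 to 18.3 ± 2.0 CPM (SD, n = 3 per group). Its log2 fold change was -0.61, with SE 0.10 and edgeR adjusted p 0.00152. In limma-trend the adjusted p for AP1S1 was 0.0806 and 0.0676 with pseudocounts of 1 and 0.1. TRIM56, a ubiquitin ligase, fell from 21.1 ± 1.3 to 17.2 ± 1.5 CPM (SD, n = 3 per group; edgeR adjusted p 0.0246). That call was lost without DMSO replicate 2, auxin replicate 2 or auxin replicate 3 (edgeR adjusted p 0.0681, 0.0755 and 0.0911), with upper-quartile scaling (0.191) and on both TPM scales in limma-trend (0.0989 and 0.114).

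**Figure D4:**
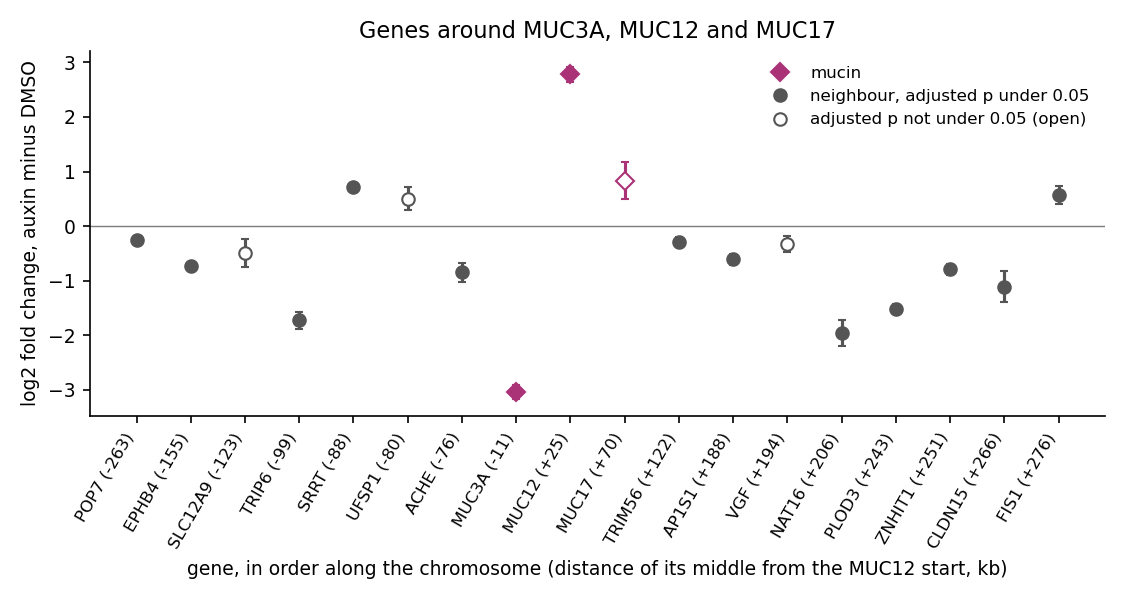
Log2 fold change (auxin minus DMSO, bars are the SE) of MUC3A, MUC12, MUC17 and 15 of the 16 tested protein-coding neighbours, in order along the chromosome with the distance of each gene's middle from the MUC12 start in kb; open symbols did not pass an edgeR adjusted p of 0.05. MUC3A at -3.04 and MUC12 at 2.78 are the extremes, with MUC17 at 0.83.

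Neighbours of the other mucins, within the same distance, were counted locus by locus. Around MUC1, 18 of 27 tested genes fell and 2 rose (median log2 fold change -0.92), and RUSC1 fell the most, from 48.7 ± 11.5 to 8.30 ± 2.16 CPM (SD, n = 3 per group; log2 fold change -2.55, edgeR adjusted p 0.000108). Around MUC13, 4 of 5 rose and 0 fell (median 0.33, highest 0.51), well short of the 2.24 of MUC13 itself. Around MUC4 and MUC20, 2 of 4 rose. Around MUC2, MUC5AC and MUC5B, 5 of 10 fell and 0 rose, with a median of -1.04. These counts of 0 were also 0 at an unadjusted p under 0.05 in edgeR and with DESeq2. TSPAN4, a tetraspanin, fell from 5.98 ± 1.55 to 0.511 ± 0.171 CPM (SD, n = 3 per group; log2 fold change -3.53, edgeR adjusted p 7.27e-05) and CRACR2B from 1.84 ± 0.42 to 0.198 ± 0.079 CPM (SD, n = 3 per group; log2 fold change -3.18, edgeR adjusted p 0.000168). In all, 33 of 62 neighbours fell, against 26.9% of all genes tested, and 11 rose, against 25.4%. With replicate number as a block 17 rose, and in limma-trend 4 rose on either TPM scale.

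Of 14 mucins and other glycoproteins outside the 10, not all of them mucin-like, 7 were tested. Of these 4 rose and 2 fell, or 57.1% and 28.6% against 25.4% and 26.9% of all genes tested, with a median of 0.44 against 0.02. In limma-trend 1 rose on either TPM scale. OVGP1, the oviduct mucin, rose from 0.928 ± 0.163 to 4.66 ± 1.31 CPM (SD, n = 3 per group). This log2 fold change of 2.33 had SE 0.23 and edgeR adjusted p 0.000174. MCAM, a cell adhesion glycoprotein also known as CD146, fell from 25.6 ± 1.7 to 1.42 ± 0.17 CPM (SD, n = 3 per group). That log2 difference, -4.16, had an SE of 0.12 and an edgeR adjusted p of 1.99e-06. PODXL, the sialomucin podocalyxin, fell from 96.3 ± 0.8 to 44.2 ± 1.5 CPM (SD, n = 3 per group). Its log2 fold change was -1.12, with SE 0.05 and edgeR adjusted p 5.79e-06. MUC6, MUC7, MUC15, MUC21, MUC22, MUCL1 and EMCN were too low to test.

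Enzymes that attach and extend mucin sugars were mostly expressed, with 28 of 33 tested. Of these, 11 rose and 5 fell, or 39.3% and 17.9%, against 25.4% and 26.9% of all genes tested, and their median was 0.20. The 11 became 7 without auxin replicate 2 or auxin replicate 3. In limma-trend on either TPM scale 3 rose and 2 fell, and with replicate number as a block 8 fell. The GALNT family, which adds the first sugar to serine or threonine, included GALNT5 and GALNT7 among the genes that rose, at log2 fold changes of 0.87 and 0.75 (edgeR adjusted p 0.000326 and 6.57e-05), and GALNT3 at -0.08 (edgeR adjusted p 0.440); these 3 were named after their values were seen. FUT2, which makes the H antigen on secreted and surface glycans, rose from 3.87 ± 0.09 to 9.19 ± 0.20 CPM (SD, n = 3 per group). This log2 fold change of 1.25 had SE 0.08 and edgeR adjusted p 2.53e-05. ST6GALNAC2, a sialyltransferase, fell from 16.3 ± 0.5 to 7.13 ± 0.71 CPM (SD, n = 3 per group). That log2 difference, -1.19, had an SE of 0.09 and an edgeR adjusted p of 5.41e-05.

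Of 24 genes of the goblet cell secretory programme, 12 passed the filter on low counts and were tested. In edgeR's quasi-likelihood test 0 rose (1 at an unadjusted p under 0.05, and 1 with DESeq2) and 4 fell. These are 0% and 33.3%, against 25.4% and 26.9% of all genes tested. With replicate number as a block 2 rose. GFI1, a transcription factor of secretory cells, fell from 9.74 ± 0.14 to 4.52 ± 0.44 CPM (SD, n = 3 per group). Its log2 fold change was -1.11, with SE 0.10 and edgeR adjusted p 9.52e-05. FOXA1 fell from 13.5 ± 1.5 to 9.54 ± 0.92 CPM (SD, n = 3 per group; edgeR adjusted p 0.00818, but 0.201 and 0.164 in limma-trend with pseudocounts of 1 and 0.1). FOXA2 was at 0.185 ± 0.034 and 0.0971 ± 0.0277 CPM (edgeR adjusted p 0.0332, but 0.0646 with upper-quartile scaling and 0.101, 0.0933 and 0.0968 without DMSO replicate 2, auxin replicate 2 or auxin replicate 3, and 0.164 and 0.0960 in limma-trend with pseudocounts of 1 and 0.1). FOXA3 was at 5.04 ± 0.37 and 5.78 ± 0.43 CPM (edgeR adjusted p 0.154, and 0.0268 with the block) and KLF4 at 24.0 ± 2.4 and 25.0 ± 2.6 CPM (edgeR adjusted p 0.666). ATOH1 and SPDEF, which direct goblet cell fate, were at 0.00403 ± 0.00364 and 0.0168 ± 0.0088 CPM in DMSO and at 0.00900 ± 0.00469 and 0.0101 ± 0.0061 CPM after auxin (SD, n = 3 per group).

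Of the enterocyte brush border list, the surface on which MUC3A, MUC12, MUC13 and MUC17 are normally displayed, 14 of 26 genes were tested, and 7 rose and 1 fell, or 50% and 7.14%, against 25.4% and 26.9% of all genes tested. In limma-trend 0 rose on log2(TPM + 1) and 1 with a pseudocount of 0.1, and with replicate number as a block 3 fell. The fall of 1 became 2 without DMSO replicate 3 or auxin replicate 1. The intestinal homeobox factor CDX2 rose from 8.07 ± 1.05 to 11.9 ± 1.2 CPM (SD, n = 3 per group). This log2 fold change of 0.56 had SE 0.12 and edgeR adjusted p 0.00708. In limma-trend the adjusted p for CDX2 was 0.507 on log2(TPM + 1) and 0.467 with a pseudocount of 0.1. CDX1 had 0 counts in all 6 libraries, and HNF4A was at 0.253 ± 0.036 and 0.326 ± 0.027 CPM (SD, n = 3 per group; edgeR adjusted p 0.136). USH1C, the microvillus linker protein harmonin, fell from 3.46 ± 0.28 to 1.14 ± 0.13 CPM (SD, n = 3 per group). That log2 difference, -1.60, had an SE of 0.13 and an edgeR adjusted p of 7.27e-05.

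**Figure D5:**
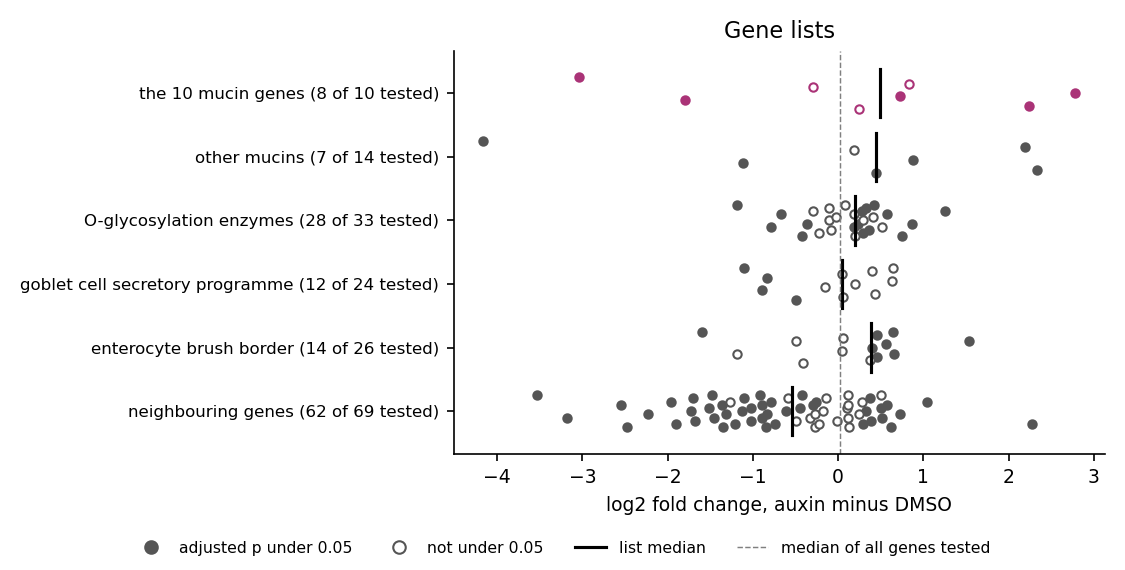
Log2 fold change (auxin minus DMSO) of each tested gene among the 10 mucin genes and 5 related lists; filled points passed an edgeR adjusted p of 0.05, the black bar is the list median and the dashed line the median of all genes tested, 0.02. The mucin genes spread from -3.04 to 2.78, and the median of neighbouring genes is -0.54.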

How the data were processed

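RNA of 6 HCT116 libraries was sequenced, and the authors deposited a gene table and a transcript table for each. Per the file headers these give expected counts (estimated reads, not whole), TPM, effective lengths and a posterior SD of each count. The submitters' processing notes name STAR, DESeq2, bcl2fastq 2.20 and GRCh38 (hg38), with no role or order; the use of strand in counting is not given in the sources used here. All 58780 gene and 206761 transcript IDs matched GENCODE release 29, used for symbols and coordinates. Another 746 rows that name no human gene, at most 0.00111% of a library, were left out of library sizes and tests.

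Rounded expected counts were fitted with edgeR 4.0.16 in R 4.3.3 (filterByExpr, TMM, glmQLFit, glmQLFTest), with Benjamini-Hochberg adjustment over 19725 genes and calls at 0.05. CPM uses the TMM factors. On simulated data of 19725 genes with 200 changed, the edgeR fit called 61.3% of genes changed 2-fold and 85.0% of those changed 4-fold. Of its calls there, 5.79% were false. In the real contrast 52.3% of genes were called, so these rates need not hold for it. Alternatives used DESeq2 1.42.0 and limma 3.58.1. Intervals and limits at 0 counts cover counting error only. Deviations of same-numbered libraries from their group means had Pearson r of 0.651, 0.265 and 0.276 across genes for replicates 1, 2 and 3. Auxin replicate 2 with DMSO replicate 3 had 0.312, and auxin replicate 3 with DMSO replicate 2 had 0.18. Replicate 1 of either group had negative r with the differently numbered libraries. Deviations within a group cancel for each gene, so these negative values are partly forced by the r of replicate 1. The highest r was that of replicate 1, the deepest in both groups, and a pairing of replicates 2 and 3 was not shown. The fit with replicate number as a block is given where it changes a call. Promoter windows came from RefSeq (GRCh38.p14) for 7 of the 10 genes.

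The mucin genes and all lists were chosen with earlier results of these data known. Genes named were the 10 mucins, the 3 nearest protein-coding genes on either side of the 7q22 cluster, list transcription factors, and up to 3 genes per list and direction with the largest called change of at least 1 (log2) and a mean of at least 1 CPM. Some genes that this rule names are not reported here. Transcripts named held at least 10% of a gene at 1 TPM or more; MUC3A-201, MUC3A-202, MUC12-202 and MUC12-201 were added after their values were seen.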

Additional observations from a re-analysis of the deposited data

How the results depend on the processing

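The values of MUC12, MUC3A, MUC13 and MUC1 kept their direction under every alternative tried. The log2 fold change ran from 1.96 to 2.90 for MUC12, -3.19 to -2.65 for MUC3A, 1.67 to 2.36 for MUC13 and -1.94 to -0.71 for MUC1. Those of the scarcer MUC2 (-1.39 to 0.10) and MUC20 (-0.04 to 0.44), which were not called, changed sign. Those of MUC4 ran from 0.00 to 0.86 and of MUC17 from 0.00 to 0.99; MUC17 was called higher with upper-quartile factors (0.96), for 4 mucin genes higher. Leaving MUC3A-204 out was chosen after seeing the data. Upper-quartile factors moved the median gene by 0.12, and limma-trend by -0.14 on log2(TPM + 1) and -0.15 with a pseudocount of 0.1. With pseudocounts of 1 and 0.1 respectively, 970 and 1017 genes were higher and 2966 and 3223 lower in all; 1 and 1 other mucins, 3 and 3 glycosylation enzymes, 0 and 1 brush border genes and 4 and 4 neighbours were higher; 2 and 2 glycosylation enzymes and 2 and 2 goblet genes were lower. With a pseudocount of 1, 1 of the 10 mucin genes was lower. The cause of these drops was not tested.

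With replicate number as a block, which pairs same-numbered libraries, 8 glycosylation enzymes and 3 brush border genes were lower, and 2 goblet genes and 17 neighbours were higher; the pairing changed no call among the 8 mucin genes. For goblet genes called higher, 1 was found with DESeq2, with RLE size factors, without a low-count filter and with replicates 2 and 3 only, and 2 with upper-quartile factors. For brush border genes called lower, DESeq2, no filter and replicates 2 and 3 only gave 2. Leaving out each library in turn gave 7 to 13 glycosylation enzymes higher, 0 to 1 goblet genes higher and 1 to 2 brush border genes lower. MUC5AC and MUC5B, with at most 12 counts in a library, were not tested.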
